A study of Saccharomyces cerevisiae with 10 samples.

Results

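Diploid cells in the [ESI+] state were set against diploid cells lacking SET3, by RNA-seq of 2 libraries each. These 4 libraries were taken, by their labels, from a series of 10 libraries in 5 groups of 2. All of them are diploids of Saccharomyces cerevisiae strain BY4743 (a laboratory strain whose textbook genotype lacks functional HIS3, LEU2 and URA3), grown to mid-log phase in YPD, a rich glucose medium. The [ESI+] libraries are labelled as [ESI+] diploids, and the labels name no deletion or drug for them. The set3 deletion libraries are labelled as homozygous diploids for set3delta. The 2 naive libraries, labelled as naive diploids, serve here as a reference level for both. The labels do not say how the [ESI+] state was obtained, whether a group is 1 clone, or whether replicates were separate cultures, so p-values measure the spread between these libraries only.

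Set3 is a chromatin protein that binds histone H3 methylated near the start of genes and holds together a histone deacetylase complex with Snt1, Hos2, Sif2 and others. [ESI+] is a prion-like, heritable state described through Snt1, a scaffold of the same complex, and through increased expression near chromosome ends. The comparison places a heritable state linked to this complex beside genetic loss of the complex.

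The summed estimated counts were 55180700 and 58713200 in [ESI+] replicates 1 and 2, and 80651800 and 8327730 in set3 deletion replicates 1 and 2, so counting error weighs most in set3 deletion replicate 2. The [ESI+] libraries held more reads where few are seen elsewhere. Silent genes, which are 96 nuclear reading frames near 0 in the 6 naive, hos2 deletion and snt1 deletion libraries, stood at a median CPM (counts scaled to a common library total) per kb of 0.421 and 2.44 in [ESI+] replicates 1 and 2, against 0.0576 and 0 in the set3 deletion. Targets of the mitochondrial genome had 4.26 and 21.6 CPM per kb in [ESI+] and 0.116 and 0.0952 in the set3 deletion. What these reads contribute to a difference in nuclear transcripts was not tested, and counts after their subtraction are given for the gene lists described.

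SET3 transcripts matched the labels. SET3 (YKR029C, chromosome XI, 497578 to 499833, minus strand, build R64) had 521 and 879 counts in the [ESI+] libraries and 2 and 0 in the set3 deletion libraries. The ratio after scaling was 365 (95% interval 101 to 3020, exact binomial, counting error only), with a fitted log2 fold change of 8.34 ± 0.53 (SE) and adjusted p = 1.59e-05. Throughout, fold changes are log2 of [ESI+] over set3 deletion with their SE, each group having 2 libraries, and p-values come from the quasi-likelihood test of edgeR, adjusted after Benjamini and Hochberg over all genes tested. A gene is called where the adjusted p is under 0.05.

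The other genes of the complex were mostly transcribed at like levels. SNT1, the scaffold through which [ESI+] was described, had 36.7 and 73.4 CPM in [ESI+] and 66.6 and 67.2 CPM in the set3 deletion, which overlap. HOS2, the histone deacetylase, had 8.02 and 13.4 CPM in [ESI+] against 7.38 and 7.83 CPM, a log2 fold change of 0.50 ± 0.30 that was not called (adjusted p = 0.261). SIF2, HOS4 and HST1, 2 further core subunits and an associated NAD-dependent deacetylase, lay between -0.10 and 0.04. CPR1, the cyclophilin that associates with the complex, was lower in [ESI+], with 699 and 664 CPM against 2357 and 1571 CPM (-1.53 ± 0.34, adjusted p = 0.0155). CPR1 shares reads with another target and was called in 1 of the 4 fits without 1 library, the one without set3 deletion replicate 2 (-1.81). Its values in the other 3 such fits were -1.58, -1.49 and -1.25.

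Of 6390 genes tested, 1032 (16.2%) were called, 525 (8.22%) higher in [ESI+] and 507 (7.93%) lower. In each of these 1032 genes both [ESI+] libraries lay on one side of both set3 deletion libraries. That arrangement was common, since 39.2% of all genes tested had both [ESI+] libraries above and 32% had both below. A fold over 2 was seen in 606 of the called genes, 320 higher and 286 lower, and the median over all genes tested was 0.072. Relative to naive, and with both comparisons sharing the naive libraries, [ESI+] had 886 genes higher (13.9%) and 924 lower (14.5%), while the set3 deletion had 37 higher (0.579%) and 123 lower (1.92%). The number of calls depended on single libraries: it was 399 without [ESI+] replicate 1, 50 without [ESI+] replicate 2, 75 without set3 deletion replicate 1 and 305 without set3 deletion replicate 2. Directions are relative to other genes, because library sizes from the ERCC spike-in RNAs moved the median over all genes to 1.28 and left 48 calls (38 higher, 10 lower), and limma-trend on log2(TPM + 1) gave 1532 higher and 72 lower. The ERCC share of counts was 0.946% and 5.19% in [ESI+] replicates 1 and 2, and 3.20% and 2.71% in the set3 deletion. Values on the spike-in scale thus rest on [ESI+] libraries that differ widely in spike-in share.

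**Figure D1:**
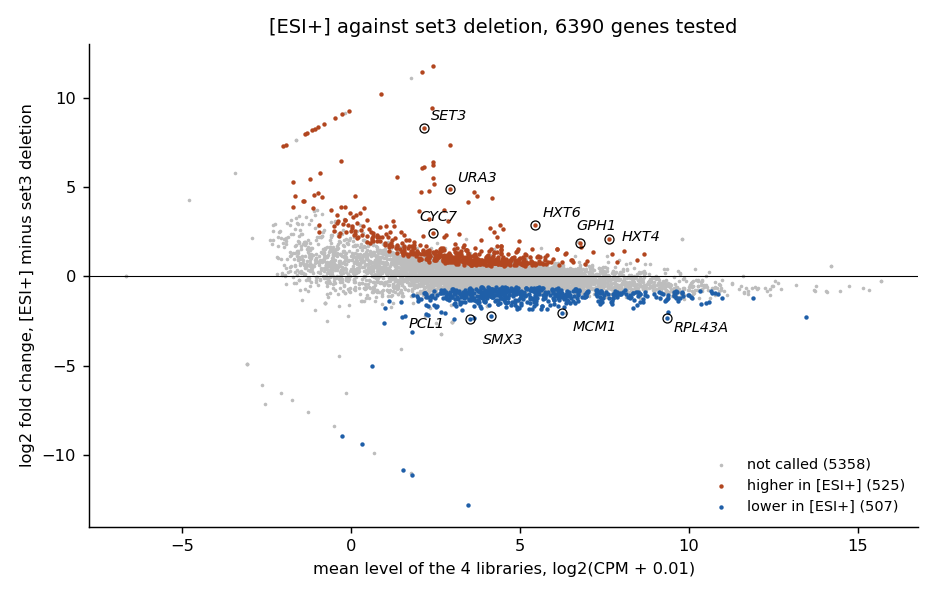
Log2 fold change of [ESI+] over the set3 deletion (vertical axis) against the mean level of the 4 libraries in log2(CPM + 0.01) (horizontal axis) for the 6390 genes tested. Red and blue points are the 525 genes called higher and the 507 called lower in [ESI+], and circles mark 10 named genes, with SET3 at 8.34 and PCL1 at -2.40.

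The lists of hexose transporters and of glycogen and trehalose genes had 9 members each called higher in [ESI+] than in the set3 deletion and 0 called lower. Glycogen is the cell's stored glucose polymer, made and broken down by a small set of enzymes under stress and glucose control. Of 20 glycogen and trehalose genes tested, 9 (45%) were higher and 0 lower, with a median of 0.84. GPH1, the glycogen phosphorylase, had 189 and 155 CPM in [ESI+] and 54.3 and 40.2 CPM in the set3 deletion (1.86 ± 0.29, adjusted p = 0.00379). GLC3, the branching enzyme, had 224 and 191 CPM in [ESI+] and 87.2 and 71.1 CPM in the set3 deletion (1.39 ± 0.27, adjusted p = 0.00919). In both genes the [ESI+] libraries stood with the naive ones, at 189 and 192 CPM for GPH1 and 211 and 197 CPM for GLC3, and the set3 deletion libraries stood below.

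GDB1, the debranching enzyme, had 31.7 and 29.5 CPM in [ESI+], 12.4 and 13.4 CPM in the set3 deletion and 42.5 and 33.5 CPM in naive (1.25 ± 0.21, adjusted p = 0.00534). GAC1, a phosphatase subunit that activates glycogen synthase, had 28.8 and 24.5 CPM in [ESI+] against 10.2 and 7.60 CPM in the set3 deletion (1.56 ± 0.28, adjusted p = 0.00656). Neither gene's groups overlapped, which held for every gene called. Over the list, the median was 0.086 for [ESI+] relative to naive and -0.36 for the set3 deletion relative to naive. The called members numbered 8 after subtraction of reads at silent genes and 4 after removal of the trend with coding length. Without [ESI+] replicate 1, [ESI+] replicate 2, set3 deletion replicate 1 and set3 deletion replicate 2 in turn, an order kept throughout, the called members numbered 4, 1, 1 and 2. GPH1 was called in each of these 4 fits (1.65 to 2.06), GDB1 in the first and last (1.18 and 1.29), GAC1 in the first (1.42) and GLC3 in none of them (1.23 to 1.5).

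The upstream sequences of GPH1 and GLC3, one gene for breaking glycogen down and one for building it, are shown because many glycogen genes are known targets of the stress response element AGGGG, which reads CCCCT on the other strand and is bound by Msn2 and Msn4. Each is the 300 bases before the annotated gene start, on the coding strand, read from the RefSeq genome of build R64, at chrXVI:861006-861305 on the plus strand for GPH1 and chrV:132820-133119 on the plus strand for GLC3. Capitals mark the element on either strand.
GPH1: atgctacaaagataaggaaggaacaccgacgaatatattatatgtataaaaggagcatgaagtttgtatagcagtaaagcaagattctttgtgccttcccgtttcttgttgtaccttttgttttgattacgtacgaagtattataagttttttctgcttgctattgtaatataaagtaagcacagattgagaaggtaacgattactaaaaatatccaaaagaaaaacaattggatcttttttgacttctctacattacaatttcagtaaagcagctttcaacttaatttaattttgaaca
GLC3: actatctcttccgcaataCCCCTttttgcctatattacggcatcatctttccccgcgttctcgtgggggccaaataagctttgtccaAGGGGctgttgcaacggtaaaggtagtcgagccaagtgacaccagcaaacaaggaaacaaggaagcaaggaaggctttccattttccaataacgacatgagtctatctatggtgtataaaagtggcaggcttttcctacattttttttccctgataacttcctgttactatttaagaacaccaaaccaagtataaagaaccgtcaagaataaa
The GLC3 window holds 2 copies and the GPH1 window 0, which says nothing of sites farther upstream. What the element contributes to the difference at either gene was not tested. Of the 20 windows of the list, 10 hold the element, against 22.5% of 5895 windows of all genes. A match in these letters is a description and not a binding site.

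Hexose transporters carry glucose into the cell and differ in affinity. Of 16 transporters and sensors tested, 9 (56.3%) were higher in [ESI+] and 0 lower, with a median of 1.31. HXT4, a high-affinity glucose transporter, had 405 and 237 CPM in [ESI+], 84.9 and 67.4 CPM in the set3 deletion and 458 and 510 CPM in naive (2.08 ± 0.31, adjusted p = 0.00315). HXT6, another high-affinity transporter, had 108 and 47.4 CPM in [ESI+], 12.9 and 7.39 CPM in the set3 deletion and 161 and 102 CPM in naive (2.90 ± 0.47, adjusted p = 0.00673). The order was the same in both genes, with the set3 deletion lowest and [ESI+] at or below naive. HXT1, the low-affinity transporter, had 161 and 175 CPM in [ESI+] and 55.2 and 53.2 CPM in the set3 deletion (1.63 ± 0.26, adjusted p = 0.00438). HXT13 was read at under 4 CPM, with 1.26 and 3.79 CPM in [ESI+] and 0.405 and 0.569 CPM in the set3 deletion (2.47 ± 0.63, adjusted p = 0.0259).

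Transporter genes are near copies of each other, and 12 of the 16 tested share reads, so the division of reads among them is uncertain. The called members numbered 8, 2, 1 and 4 without each library in turn, 4 after subtraction of reads at silent genes and 2 without genes of shared reads. HXT4 was called in each of the 4 fits without 1 library (1.62 to 2.41). HXT6 lost its call without set3 deletion replicate 1 (3.36), and HXT1 without [ESI+] replicate 2 (1.57) and without set3 deletion replicate 1 (1.61). HXT13 was called only in the fit without [ESI+] replicate 1 (3.04) and otherwise had 1.46, 2.10 and 2.63.

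**Figure D2:**
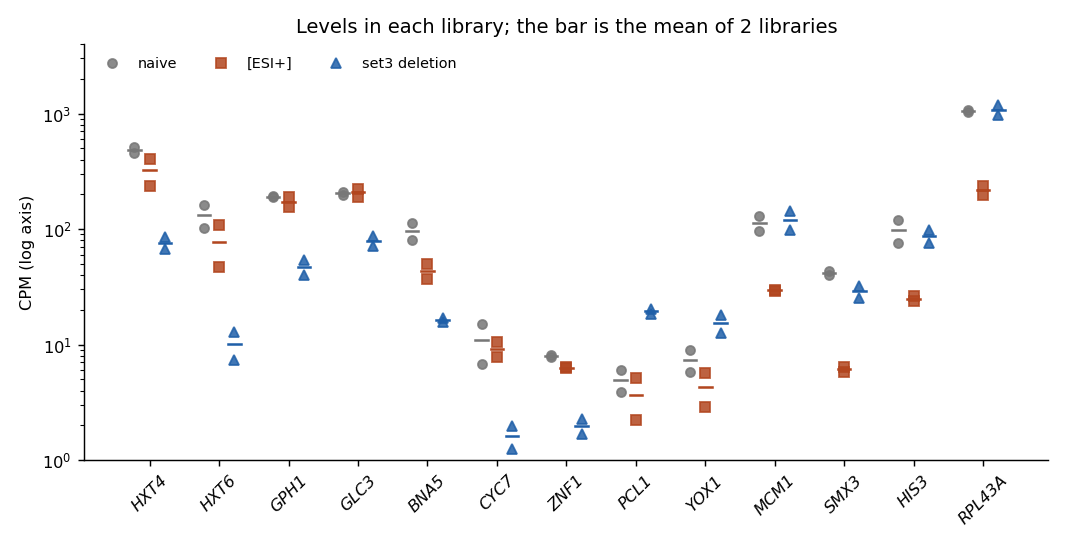
Level in CPM, on a log axis, of 13 named genes in each naive, [ESI+] and set3 deletion library, with a bar at the mean of the 2 libraries. The set3 deletion is lowest for HXT4 through ZNF1 and highest for PCL1 and YOX1, and [ESI+] is lowest for MCM1, SMX3, HIS3 and RPL43A.

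Of 13 genes of NAD synthesis tested, 3 were higher in [ESI+] (23.1%) and 0 lower, with a median of 0.12. The 3 belong to the kynurenine pathway, which makes NAD from tryptophan. Over the whole list the median relative to naive was -0.68 in [ESI+] and -0.32 in the set3 deletion. BNA5, kynureninase, had 50.0 and 36.9 CPM in [ESI+], 17.0 and 15.6 CPM in the set3 deletion and 80.1 and 112 CPM in naive (1.41 ± 0.25, adjusted p = 0.00637). BNA4, kynurenine monooxygenase, had 20.5 and 15 CPM in [ESI+], 8.39 and 7.37 CPM in the set3 deletion and 32.2 and 28.6 CPM in naive (1.16 ± 0.22, adjusted p = 0.00899). BNA1, which acts after BNA5, had 11.1 and 8.62 CPM in [ESI+] against 3.54 and 2.84 CPM (1.59 ± 0.44, adjusted p = 0.0368). All 3 kept their calls after subtraction of reads at silent genes.

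BNA2, the first enzyme of the pathway, had 1.71 and 2.76 CPM in [ESI+], 0.889 and 1.02 CPM in the set3 deletion and 7.75 and 12.7 CPM in naive, and its log2 fold change of 1.26 ± 0.43 was not called (adjusted p = 0.0621). Relative to naive, BNA2 had -2.18 in [ESI+] (adjusted p = 0.0032) and -3.44 in the set3 deletion (adjusted p = 0.00278). So in BNA2 both groups were below naive, and the distance between them did not pass the threshold. The called members of the list numbered 1, 2, 0 and 0 without each library in turn. BNA5 was called without either [ESI+] library and not without set3 deletion replicate 1 (1.43) or 2 (1.34). BNA4 was called without [ESI+] replicate 2 and not in the other 3 fits (0.90, 1.22 and 1.07), and BNA1 was called in none of the 4 (1.38 to 1.77).

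Genes for other sugars and for growth without glucose had more members higher than lower. Of 13 maltose and alpha-glucoside genes, 6 (46.2%) were higher and 0 lower, with a median of 0.91. MAL31, a maltose permease, had 18.6 and 20.7 CPM in [ESI+], 9.09 and 6.92 CPM in the set3 deletion and 18.7 and 21.7 CPM in naive (1.27 ± 0.26, adjusted p = 0.0105). MAL11, the permease of another MAL locus, had 8.99 and 11.1 CPM in [ESI+] against 4.32 and 4.42 CPM (1.21 ± 0.24, adjusted p = 0.00919) and shares reads. In MAL31 and MAL11 the [ESI+] libraries were thus close to naive. Reads were shared by 10 of the 13 genes. The called members numbered 3 after subtraction of reads at silent genes and 3, 0, 0 and 0 without each library in turn, where MAL31 ranged from 1.10 to 1.46 and MAL11 from 1.04 to 1.33.

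Of 7 galactose pathway genes, 3 were higher and 0 lower, with a median of 0.87. GAL4, the pathway's activator, had 9.97 and 11.0 CPM in [ESI+] and 5.81 and 6.13 CPM in the set3 deletion (0.82 ± 0.20, adjusted p = 0.0242). GAL10, the epimerase, had 3.86 and 5.96 CPM against 1.53 and 2.38 CPM (1.4 ± 0.36, adjusted p = 0.0261). Of 22 genes of gluconeogenesis, the glyoxylate cycle and fatty acid oxidation, 7 (31.8%) were higher and 0 lower, with a median of 0.66. FAA2, a peroxisomal acyl-CoA synthetase, had 13.0 and 18.4 CPM in [ESI+] and 5.90 and 5.10 CPM in the set3 deletion (1.49 ± 0.26, adjusted p = 0.00566). SIP4, an activator of gluconeogenic genes, had 1.22 and 3.70 CPM against 0.222 and 0 CPM (3.83 ± 0.81, adjusted p = 0.0131).

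After subtraction of reads at silent genes the counts were 0 of 7 for galactose and 1 of the 21 genes still tested for gluconeogenesis and fatty acid oxidation. The galactose count was 1, 0, 0 and 0 without each library in turn, and the gluconeogenesis count was 6, 0, 0 and 1. GAL4 was called in none of these 4 fits (0.73 to 0.87). GAL10 was called without [ESI+] replicate 1 (1.66) and not in the others (1.05, 0.99 and 1.67), and SIP4 likewise (4.40, and 2.83, 9.49 and 3.43). FAA2 kept its call without [ESI+] replicate 1 and without set3 deletion replicate 2, and lost it without [ESI+] replicate 2 (1.22) and without set3 deletion replicate 1 (1.57).

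Among 31 genes of the general stress response, which Msn2 and Msn4 drive, 6 (19.4%) were higher and 1 (3.23%) lower, with a median of 0.13. The shares over all genes were 8.22% and 7.93%. Relative to naive, the list median was -0.89 in [ESI+] and -0.81 in the set3 deletion, so both groups lay below naive. In that comparison [ESI+] had 0 members higher and 12 lower, and the set3 deletion 0 higher and 4 lower. MSN4 itself had 51.1 and 33.7 CPM in [ESI+], 21.6 and 20.5 CPM in the set3 deletion and 46.9 and 43.7 CPM in naive (1.01 ± 0.23, adjusted p = 0.0187). DCS2, a stress-induced relative of the scavenger decapping enzyme, had 23.5 and 18.6 CPM against 8.86 and 6.69 CPM (1.41 ± 0.31, adjusted p = 0.0161). GPX1, a glutathione peroxidase, had 5.75 and 5.52 CPM against 2.18 and 2.04 CPM (1.41 ± 0.32, adjusted p = 0.0166). NQM1, a transaldolase, had 2.75 and 4.15 CPM against 0.709 and 0.567 CPM (2.38 ± 0.51, adjusted p = 0.0136). The groups did not overlap in these 4 genes, as in every gene called. Once reads at silent genes were subtracted 6 members were higher and 0 lower. The called members numbered 1, 0, 0 and 1 without each library in turn. NQM1 was the one called without [ESI+] replicate 1 (2.63, then 2.05, 2.55 and 2.26), while MSN4 (0.66 to 1.28), DCS2 (1.21 to 1.61) and GPX1 (1.35 to 1.43) were called in none of the 4.

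Of the 15 highest genes, CYC7, ZNF1 and GSM1 had naive levels above the set3 deletion, but this order was not particular to them. Relative to naive the set3 deletion had -2.01 at GPH1, -1.56 at RTC2, -0.77 at YCX1, -0.76 at SPO1, -0.56 at PDH1 and -0.46 at MSH4. At GSM1 it had -1.14 and was not called (adjusted p = 0.106). The set3 deletion was near or above naive at URA3, SLI15, NFT1, MSH5 and OCA4 (0.90, 0.50, 0.19, 0.04 and -0.08). CYC7, the cytochrome c isoform made when oxygen is low, had 10.6 and 7.84 CPM in [ESI+], 1.97 and 1.25 CPM in the set3 deletion and 15.1 and 6.85 CPM in naive (2.41 ± 0.42, adjusted p = 0.00646). ZNF1, a zinc cluster regulator of respiratory genes, had 6.35 and 6.25 CPM in [ESI+], 1.67 and 2.27 CPM in the set3 deletion and 7.75 and 8.10 CPM in naive (1.74 ± 0.31, adjusted p = 0.00637). GSM1, a predicted regulator of energy metabolism, had 4.88 and 6.21 CPM against 1.5 and 1.93 CPM (1.74 ± 0.34, adjusted p = 0.00892). Relative to naive, CYC7 had -0.28 in [ESI+] and -2.69 in the set3 deletion, and ZNF1 had -0.33 and -2.07. CYC7 lost its call only without set3 deletion replicate 1 (2.83), and ZNF1 and GSM1 lost theirs without [ESI+] replicate 2 (1.74 and 1.55) and without set3 deletion replicate 1 (1.43 and 1.47).

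IMD2, an IMP dehydrogenase of guanine nucleotide synthesis, had 125 and 107 CPM in [ESI+], 46.1 and 48.9 CPM in the set3 deletion and 208 and 261 CPM in naive (1.29 ± 0.21, adjusted p = 0.0044). Its relative IMD4 had -0.63 ± 0.24 and was not called (adjusted p = 0.094). All 3 IMD genes tested share reads. IMD2 lost its call without set3 deletion replicate 1 (1.20). PHO11, a secreted acid phosphatase with a near-identical copy, had 67.5 and 57.0 CPM in [ESI+] against 34.9 and 23.6 CPM (1.08 ± 0.25, adjusted p = 0.0169). TIR1, a cell wall mannoprotein of cold and anaerobic growth, had 33.9 and 50.1 CPM against 17.7 and 15.2 CPM (1.34 ± 0.32, adjusted p = 0.0206). These 3 genes lay below naive in the set3 deletion, by -2.31, -1.67 and -1.88. PHO11 was called in none of the 4 fits without 1 library (0.82 to 1.35), and TIR1 in the first (1.58, then 1.04, 1.42 and 1.23).

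G1 cyclins drive the decision to divide. Of 6 tested, 3 were lower in [ESI+] and 0 higher, with a median of -0.55 that became 0.63 with spike-in library sizes (1.28 over all genes). With reads at silent genes subtracted, 2 were lower. PCL1, a G1 cyclin that binds the Pho85 kinase, had 2.22 and 5.13 CPM in [ESI+], 20.4 and 18.5 CPM in the set3 deletion and 3.88 and 6.0 CPM in naive (-2.40 ± 0.35, adjusted p = 0.00315). YOX1, a homeodomain repressor that acts with Mcm1, had 2.87 and 5.69 CPM in [ESI+], 18.1 and 12.6 CPM in the set3 deletion and 5.83 and 8.96 CPM in naive (-1.86 ± 0.40, adjusted p = 0.016). In PCL1 the set3 deletion libraries stood above every [ESI+] and naive library, and the same held for YOX1.

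CLN1 and CLN2, the cyclins that commit cells to division, differed less. CLN1 had 14.5 and 17.0 CPM in [ESI+] and 26.9 and 24.8 CPM in the set3 deletion (-0.72 ± 0.19, adjusted p = 0.0282), and CLN2 had 19.7 and 17.9 CPM against 25.0 and 33.9 CPM (-0.64 ± 0.20, adjusted p = 0.0479). Both changed sign with spike-in library sizes, to 0.45 and 0.59. CLN3, the upstream cyclin, had -0.32 ± 0.20 and was not called (adjusted p = 0.263). Relative to naive, the set3 deletion had 2.01 at PCL1 (adjusted p = 0.018) and 1.26 at CLN1 (adjusted p = 0.0087), and [ESI+] had -0.39 and 0.54, neither called. The set3 deletion was not called relative to naive at YOX1 (1.09, adjusted p = 0.186), CLN2 (0.48, adjusted p = 0.227) or CLN3 (-0.05, adjusted p = 0.915), and 2 of the 6 cyclins were called there. PCL1 was called in each of the 4 fits without 1 library (-3.13 to -1.94), and was the 1 cyclin called in each. YOX1 lost its call without [ESI+] replicate 1 (-1.46) and without set3 deletion replicate 1 (-1.61), and CLN1 (-0.83 to -0.63) and CLN2 (-0.90 to -0.43) lost theirs in all 4.

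The upstream sequences of PCL1 and YOX1 are shown because G1 transcription is known to run through the Swi4 cell cycle box, CNCGAAA, which reads TTTCGNG on the other strand, and through the MluI box, ACGCGT. Both are the 300 bases before the annotated gene start on the coding strand, from the RefSeq genome of build R64, at chrXIV:87597-87896 on the plus strand for PCL1 and chrXIII:221106-221405 on the plus strand for YOX1. Capitals mark the Swi4 box on either strand.
PCL1: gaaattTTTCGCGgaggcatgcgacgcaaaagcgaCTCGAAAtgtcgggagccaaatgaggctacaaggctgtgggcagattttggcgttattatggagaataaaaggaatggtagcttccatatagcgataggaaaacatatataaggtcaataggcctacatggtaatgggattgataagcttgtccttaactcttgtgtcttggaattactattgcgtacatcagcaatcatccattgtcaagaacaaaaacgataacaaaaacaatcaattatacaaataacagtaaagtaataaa
YOX1: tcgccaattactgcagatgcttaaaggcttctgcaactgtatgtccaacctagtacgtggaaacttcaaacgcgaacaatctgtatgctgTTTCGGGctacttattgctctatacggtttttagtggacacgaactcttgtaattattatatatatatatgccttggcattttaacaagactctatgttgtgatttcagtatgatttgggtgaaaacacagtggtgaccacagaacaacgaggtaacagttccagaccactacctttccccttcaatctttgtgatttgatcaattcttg
The PCL1 window holds 2 Swi4 boxes and the YOX1 window 1, with 0 MluI boxes in either. The Swi4 box is in 14.8% of 5895 windows and the MluI box in 3.55%. Among the 6 G1 cyclins, PCL1 is the 1 gene whose window holds a Swi4 box, which says nothing of sites farther upstream.

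Of 137 cytoplasmic ribosomal protein genes, 52 (38%) were lower and 0 higher, with a median of -0.86, which became 0.48 with spike-in library sizes (1.28 over all genes). RPL43A, a protein of the large subunit, had 236 and 196 CPM in [ESI+], 1174 and 981 CPM in the set3 deletion and 1037 and 1067 CPM in naive (-2.32 ± 0.29, adjusted p = 0.0025). RPL22A had 281 and 251 CPM in [ESI+] and 1241 and 914 CPM in the set3 deletion (-2.02 ± 0.30, adjusted p = 0.00315). RPL33A (-1.79 ± 0.34) and RPL23A (-1.26 ± 0.24, 0.052 with spike-in library sizes) were called too. For these 4 genes the set3 deletion lay within 0.23 of naive on the log2 scale and was called in none.

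Most of these genes exist as near-identical pairs, and 114 of the 137 share reads. After subtraction of reads at silent genes 23 were lower, and after subtraction and removal of the length trend together 10 were. Without each library in turn 12, 1, 2 and 24 were lower. RPL43A was called in each of these fits (-2.48 to -2.19). RPL22A lost its call without [ESI+] replicate 2 (-1.94), and RPL33A and RPL23A lost theirs there (-1.55 and -1.15) and without set3 deletion replicate 1 (-1.22 for both).

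Mitochondrial ribosomal proteins, encoded in the nucleus, had 16 of 68 members lower (23.5%) and 0 higher, with a median of -0.37 that became 0.98 with spike-in library sizes. MRPL20 had 16.8 and 12.8 CPM in [ESI+] and 32.7 and 31.8 CPM in the set3 deletion (-1.13 ± 0.19, adjusted p = 0.00523). MRPL37 (-1.19 ± 0.21), RSM19 (-1.16 ± 0.21) and YML6 (-0.99 ± 0.18) were called as well, and all 4 changed sign with spike-in library sizes (0.22, 0.17, 0.24 and 0.28). Subtraction of reads at silent genes left 13 members lower. Without each library in turn 10, 0, 0 and 9 were lower, so that the 4 genes named lost their calls without [ESI+] replicate 2 (-0.99 to -0.90) and without set3 deletion replicate 1 (-1.23 to -1.06).

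The 15 lowest named genes were mostly short, with a median coding length of 510 bases (258 to 1158), against 1896 bases (342 to 3657) for the 15 highest and 1128 bases over all nuclear reading frames tested. SMX3, a core protein of the splicing snRNPs, had 6.41 and 5.81 CPM in [ESI+], 32.3 and 25.3 CPM in the set3 deletion and 40.1 and 43.5 CPM in naive (-2.25 ± 0.22, adjusted p = 0.000713). LSM3, a related ring protein of the U6 snRNP and of mRNA decay, had 6.92 and 6.4 CPM against 20.2 and 22.5 CPM (-1.68 ± 0.23, adjusted p = 0.00315). RPB11, a subunit of RNA polymerase II, had 17.0 and 14.8 CPM against 55.0 and 42.7 CPM (-1.62 ± 0.26, adjusted p = 0.00443). In each of these the [ESI+] libraries were the low ones.

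MIC10, a protein of the cristae junctions, had 19.6 and 17.1 CPM in [ESI+] and 76.0 and 52.0 CPM in the set3 deletion (-1.81 ± 0.24, adjusted p = 0.003). COA3, an assembly factor of cytochrome oxidase, had -1.75 ± 0.25, MIM2, of the outer membrane import machinery, had -1.64 ± 0.19, and IMG1, a mitochondrial ribosomal protein, had -1.66 ± 0.31. IMP21 (-1.82 ± 0.31), CPP1, a palmitoylated protein (-1.67 ± 0.25), DAT1, which binds AT-rich DNA (-1.64 ± 0.29), and REX2, an RNA exonuclease (-1.59 ± 0.31), were also among the 15 lowest.

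MCM1, a MADS-box transcription factor needed for mating-type and cell cycle genes, had 29.1 and 29.8 CPM in [ESI+], 98.7 and 143 CPM in the set3 deletion and 95.9 and 130 CPM in naive (-2.03 ± 0.34, adjusted p = 0.00566). HIS3, of histidine synthesis, had 26.1 and 23.9 CPM in [ESI+], 98.5 and 75.9 CPM in the set3 deletion and 76.3 and 121 CPM in naive (-1.81 ± 0.30, adjusted p = 0.00508). The [ESI+] libraries were thus below both other groups at MCM1 and HIS3. Of the 15 lowest genes, PCL1, SMX3 and MIM2 were called in each of the 4 fits without 1 library (SMX3 -2.42 to -2.10, MIM2 -1.78 to -1.57). Without [ESI+] replicate 2, calls were lost at MCM1 (-2.05), IMP21 (-1.79), MIC10 (-1.71), HIS3 (-1.74), COA3 (-1.57), LSM3 (-1.62), CPP1 (-1.70), IMG1 (-1.46), DAT1 (-1.57), RPB11 (-1.52) and REX2 (-1.60). Without set3 deletion replicate 1, they were lost, besides YOX1, at HIS3 (-1.65), IMG1 (-1.69), RPB11 (-1.47) and REX2 (-1.47), and without [ESI+] replicate 1 also at REX2 (-1.60).

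The relation to length ran through the whole genome. In the shortest of 4 length classes of nuclear reading frames, of 75 to 606 bases, 3.27% were higher in [ESI+] and 15.1% lower, with a median of -0.15. In the longest class, of 1821 to 14733 bases, 14.5% were higher and 1.48% lower, with a median of 0.25. The middle classes lay between, with medians of -0.075 and 0.090. Removal of each library's trend with coding length left 298 genes higher and 774 lower, with a median over all genes of -0.11, and kept 280 of the 525 higher calls and 462 of the 507 lower ones. With the trend removed, members called higher fell from 9 to 4 for glycogen and trehalose, from 9 to 7 for hexose transporters, from 6 to 4 for maltose, from 7 to 3 for gluconeogenesis and fatty acid oxidation, from 6 to 3 for early and from 8 to 6 for middle and late meiotic genes, and from 18 to 9 for Ty reading frames. Members called lower went from 52 to 48 for cytoplasmic ribosomal proteins, from 16 to 19 for mitochondrial ones, from 7 to 13 for large-subunit assembly and from 0 to 5 for the processome. NAD synthesis again had 3 higher and cell wall proteins 6 lower.

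**Figure D3:**
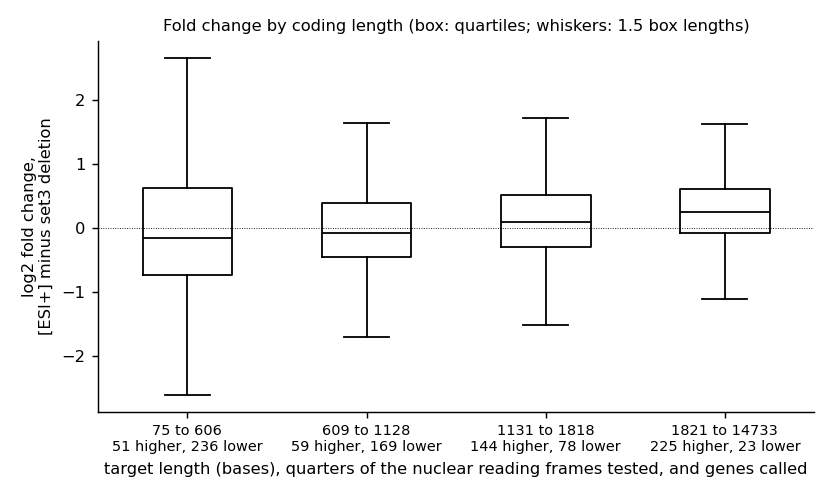
Log2 fold change of [ESI+] over the set3 deletion in 4 classes of the nuclear reading frames by target length in bases, with boxes at the quartiles and whiskers up to 1.5 box lengths. The median runs from -0.15 in the shortest class to 0.25 in the longest, and the numbers of genes called are printed under each box.

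Other lists with members lower in [ESI+] differed from the set3 deletion in fewer genes, and their negative medians all became positive with spike-in library sizes. Of 27 cell wall proteins 6 (22.2%) were lower and 0 higher (median -0.48, 0.67 with spike-in library sizes), among them CWP2, a major mannoprotein, with 504 and 399 CPM in [ESI+] against 1357 and 1012 CPM (-1.39 ± 0.29, adjusted p = 0.0124). CIS3 (-0.97 ± 0.24) and TIP1 (-0.99 ± 0.25) were called too, and changed sign to 0.26 and 0.32. Of 33 proteasome genes 4 (12.1%) were lower and 0 higher (median -0.40, 0.92 with spike-in library sizes), with RPN10, a ubiquitin receptor, at 57.2 and 48.3 CPM against 152 and 124 CPM (-1.39 ± 0.32, adjusted p = 0.0177) and PRE6, a core particle subunit, at -1.38 ± 0.35. Of 26 heat shock and chaperone genes 3 (11.5%) were lower and 0 higher (median -0.45, 0.92 with spike-in library sizes). Over all genes tested 7.93% were lower, so the proteasome and heat shock shares stood little above it. HSP60, the mitochondrial chaperonin, had 747 and 579 CPM against 1409 and 1377 CPM (-1.07 ± 0.27, adjusted p = 0.0251), and HSF1, the heat shock factor, had -0.76 ± 0.20, with 0.27 and 0.42 on the spike-in scale.

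After subtraction of reads at silent genes 1 cell wall, 1 proteasome and 2 heat shock genes were called lower, and with the length trend removed as well 0, 1 and 3 were. Without each library in turn, 1, 0, 0 and 2 cell wall genes were called lower, and 0 proteasome and 0 heat shock genes in any of the 4 fits. CWP2 kept its call without [ESI+] replicate 1 (-1.58) and without set3 deletion replicate 2 (-1.60), and not without the others (-1.23 and -1.21). TIP1 kept its call without set3 deletion replicate 2 (-1.27, against -1.06, -0.93 and -0.71), and CIS3 in none (-1.11 to -0.88). RPN10 (-1.54 to -1.27), PRE6 (-1.51 to -1.30), HSP60 (-1.28 to -0.90) and HSF1 (-0.92 to -0.67) were called in none of them.

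Ribosome assembly genes had few members called. Of 54 large-subunit assembly genes 7 (13%) were lower and 1 (1.85%) higher (median -0.27, 0.99 with spike-in library sizes). Of 35 genes of the small-subunit processome 1 (2.86%), UTP6, was higher (1.00 ± 0.28, adjusted p = 0.0342) and 0 lower, with a list median of -0.08. Over all genes tested 8.22% were higher and 7.93% lower. RRS1 had 22.9 and 21.3 CPM in [ESI+] against 38.7 and 37.0 CPM (-0.78 ± 0.19, adjusted p = 0.0211), REI1 had -1.11 ± 0.27 and MAK16 -1.05 ± 0.26, and these changed sign with spike-in library sizes, to 0.49, 0.13 and 0.19. Of 7 RNA polymerase I genes 2 were lower, RPA14 (-1.19 ± 0.23, adjusted p = 0.00811) and RPA12 (-0.79 ± 0.22, adjusted p = 0.0351), at 0.15 and 0.60 on the spike-in scale. After subtraction of reads at silent genes 5 large-subunit assembly genes and 1 RNA polymerase I gene were lower, and 0 processome genes were called in either direction. The median of the processome list relative to naive was 0.43 in [ESI+] and 0.55 in the set3 deletion, so the 2 groups lay on the same side of naive. RPA14 kept its call without [ESI+] replicate 1 (-1.38) and without set3 deletion replicate 2 (-1.29), and not without the others (-1.04 and -1.14). UTP6 (0.80 to 1.10), RRS1 (-0.85 to -0.72), REI1 (-1.37 to -0.90), MAK16 (-1.28 to -0.86) and RPA12 (-1.06 to -0.57) were called in none of the 4 fits without 1 library.

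Genes of central metabolism showed few calls. None of 20 glycolysis and fermentation genes was called, at a list median of -0.50 (0.74 with spike-in library sizes), and DESeq2 called 1 higher and 3 lower (unadjusted p under 0.05 in 3 genes). The one with the smallest p, PDC6, had 2.15 ± 0.77 (adjusted p = 0.075). Of 48 genes of the TCA cycle and nuclear respiratory chain 2 were higher, CYC7 and ATP20 (1.20 ± 0.36, adjusted p = 0.0414), and 3 lower. These shares, 4.17% and 6.25%, were under the 8.22% and 7.93% over all genes. QCR6, of complex III, had 23.7 and 21.8 CPM in [ESI+] against 62.1 and 71.5 CPM (-1.55 ± 0.28, adjusted p = 0.007), and ATP14, of the ATP synthase, had -1.22 ± 0.29, or 0.23 with spike-in library sizes. QCR6 and ATP14 lost their calls without [ESI+] replicate 2 (-1.49 and -0.97) and without set3 deletion replicate 1 (-1.70 and -0.92), and ATP20 in all 4 fits (1.00 to 1.37). The list had 4 members higher and 2 lower once reads at silent genes were subtracted.

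Of 26 iron genes 2 were higher and 2 lower (7.69% each), near the shares over all genes (8.22% and 7.93%). FET3 and FTR1, the oxidase and permease of high-affinity iron uptake, were lower in [ESI+], with 56.3 and 65.4 CPM against 147 and 140 CPM for FET3 (-1.24 ± 0.25, adjusted p = 0.0105) and 43.7 and 40.5 CPM against 101 and 95.3 CPM for FTR1 (-1.22 ± 0.27, adjusted p = 0.0157, 0.046 with spike-in library sizes). FRE2, a ferric reductase, and FIT1, a mannoprotein that retains siderophore iron, were higher (1.43 ± 0.35 and 1.13 ± 0.31). The counts were 1 higher and 2 lower after subtraction of reads at silent genes. Among 19 phosphate genes 4 were higher and 1 lower, with PHM8, a phosphatase, at 1.06 ± 0.23 and PHO85, the kinase, at -0.86 ± 0.22 (0.49 with spike-in library sizes), and these counts were also 4 and 1 after subtraction. FET3 kept its call without set3 deletion replicate 2 (-1.29, against -1.15, -1.35 and -1.25) and FTR1 in none (-1.29 to -1.17). FRE2 and FIT1 kept theirs without [ESI+] replicate 1 (1.70 and 1.46) and not in the other 3 fits (1.07 to 1.54 and 0.69 to 1.27). PHM8 and PHO85 kept theirs without set3 deletion replicate 2 (1.19 and -1.09) and not in the others (0.84 to 1.08 and -1.01 to -0.64).

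Genes of silent chromatin and telomeres had 4 of 30 higher (13.3%) and 2 lower (6.67%), against 8.22% and 7.93% over all genes. YKU70, which binds DNA ends, had 8.82 and 10 CPM in [ESI+] against 3.0 and 3.4 CPM (1.57 ± 0.36, adjusted p = 0.0182), and EST1, of telomerase, had 4.82 and 5.95 CPM against 1.89 and 1.47 CPM (1.64 ± 0.38, adjusted p = 0.019). The histone chaperone subunits ASF1 (-0.94 ± 0.27) and CAC2 (-1.03 ± 0.29) were lower, and became 0.12 and 0.22 with spike-in library sizes. HHO1, the linker histone, was the 1 of 11 histone genes called (9.09%, against 7.93% lower over all genes). It had 43.6 and 36.3 CPM against 107 and 95.4 CPM (-1.35 ± 0.29, adjusted p = 0.0145). Subtraction of reads at silent genes left 1 gene of the silent chromatin list called higher and 0 lower. EST1 kept its call without [ESI+] replicate 1 (1.77, against 1.48, 1.82 and 1.49). YKU70 (1.42 to 1.64), ASF1 (-1.25 to -0.69), CAC2 (-1.15 to -0.96) and HHO1 (-1.5 to -1.22) lost theirs in each of the 4 fits.

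Meiotic genes are held off in rich medium by repressors, and the Set3 complex was first described as a repressor of the sporulation program. Of 27 middle and late meiotic genes 8 (29.6%) were higher and 0 lower, with a median of 2.06, and of 21 early meiotic genes 6 (28.6%) were higher and 1 lower, with a median of 1.27. SSP1, of spore wall formation, had 1.14 and 2.71 CPM in [ESI+], 0.167 and 0.454 CPM in the set3 deletion and 0.489 and 0.389 CPM in naive (2.96 ± 0.75, adjusted p = 0.025). DIT1, of spore wall dityrosine, had 1.5 and 3.67 CPM against 0.597 and 0.454 CPM (2.23 ± 0.58, adjusted p = 0.0272). MSH4 and MSH5, partners in meiotic crossing over, had 1.94 and 5.32 CPM against 0.584 and 0.340 CPM (2.84 ± 0.70, adjusted p = 0.0231) and 2.54 and 5.30 CPM against 0.986 and 1.47 CPM (1.74 ± 0.50, adjusted p = 0.0381).

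In SSP1, DIT1, MSH4 and MSH5 the [ESI+] library with the higher level was replicate 2, which also had the more reads at silent genes. After subtraction of those reads the middle and late list had 0 of 21 members still tested called in either direction, with a median of 0.36, and the early list had 1 higher and 1 lower. The fold changes left were 1.07 for SSP1, 1.32 for DIT1, 1.71 for MSH4 and 0.50 for MSH5. REC114 and REC107, which act in meiotic double-strand breaks, were the early genes that stayed called. REC114 had 5.84 and 5.91 CPM in [ESI+], 2.26 and 2.84 CPM in the set3 deletion and 6.49 and 5.61 CPM in naive (1.24 ± 0.27, adjusted p = 0.0134). REC107 had 5.95 and 8.38 CPM in [ESI+], 17.2 and 18.4 CPM in the set3 deletion and 18.4 and 26.7 CPM in naive (-1.31 ± 0.32, adjusted p = 0.0238).

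Without each library in turn the middle and late list had 9, 0, 0 and 0 members higher and the early list 6, 0, 0 and 1. The call of SSP1 was kept without [ESI+] replicate 1 (3.43, against 2.20, 2.02 and 3.49), as were those of DIT1 (2.72, against 1.45, 2.45 and 2.09), MSH4 (3.37, against 1.94, 3.35 and 2.61) and MSH5 (2.15, against 1.10, 1.35 and 1.97). REC114 was called without set3 deletion replicate 2 (1.36, against 1.23, 1.23 and 1.00) and REC107 in none of the 4 (-1.58 to -1.10).

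Mating and haploid-specific genes, which diploids repress, had 2 of 20 members higher (10%, against 8.22% over all genes), 0 lower and a median of 1.13. STE6, the exporter of a-factor, had 7.51 and 9.87 CPM in [ESI+] against 3.04 and 3.74 CPM (1.39 ± 0.27, adjusted p = 0.00866), and STE3, the a-factor receptor, had 0.867 and 2.67 CPM against 0.288 and 0.227 CPM (2.69 ± 0.73, adjusted p = 0.0302). After subtraction of reads at silent genes 0 of 20 were called, with STE6 at 0.81 and STE3 at 1.23. STE6 lost its call without [ESI+] replicate 2 (1.17) and without set3 deletion replicate 1 (1.16), and STE3 in all but the fit without [ESI+] replicate 1 (3.26, against 1.66, 2.89 and 2.58).

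**Figure D4:**
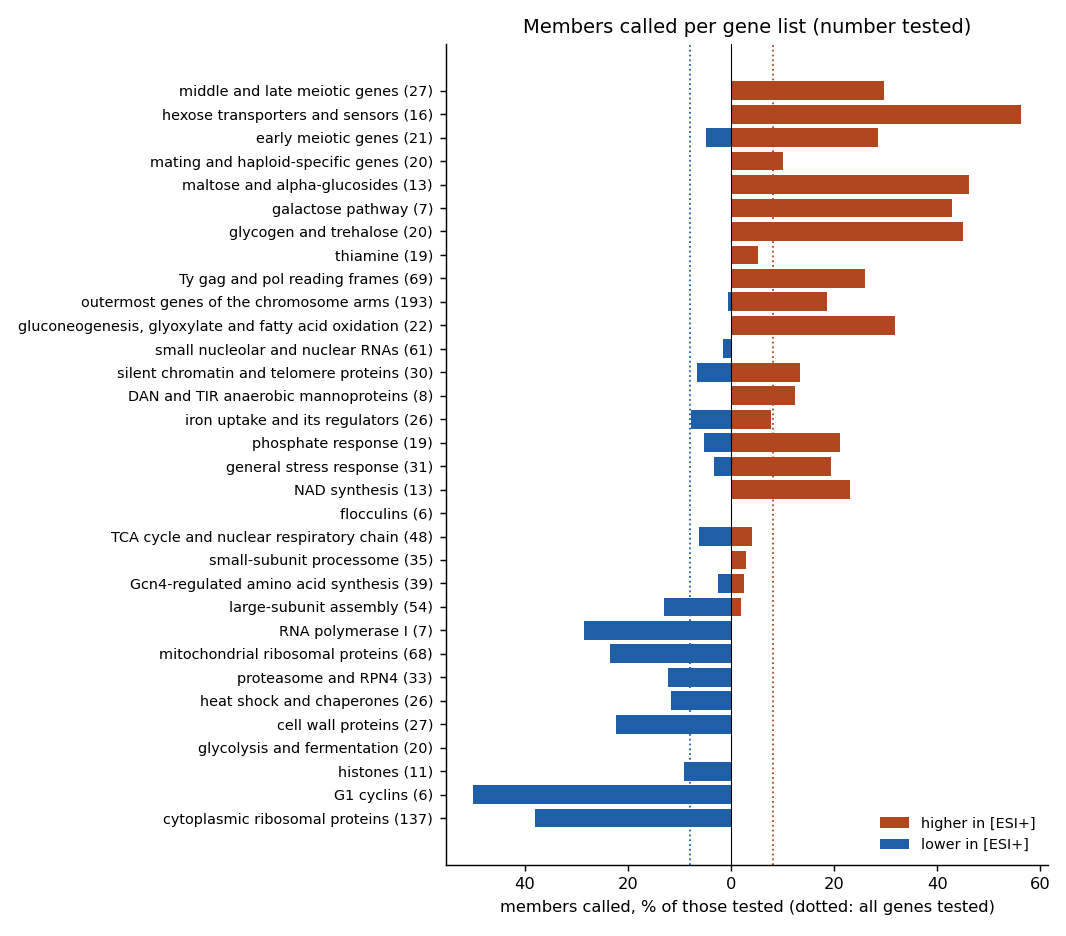
Share of the tested members of each gene list called higher (red) or lower (blue) in [ESI+], in percent, with the number tested in parentheses and dotted lines at the shares over all genes tested, 8.22% higher and 7.93% lower. Hexose transporters reach 56.3% higher and G1 cyclins 50% lower, and the bars of the meiotic and mating lists fall to 0 or 1 member higher once reads at silent genes are subtracted.

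Other genes among the highest were at low levels as well. SLI15, a chromosomal passenger protein that acts with the Aurora kinase, stood apart with 27.0 and 34.5 CPM in [ESI+], 10.8 and 7.83 CPM in the set3 deletion and 5.90 and 7.63 CPM in naive (1.70 ± 0.28, adjusted p = 0.00488). YCX1 had 12.9 and 13.1 CPM in [ESI+] against 3.45 and 3.97 CPM (1.83 ± 0.27, adjusted p = 0.00315). The rest had under 10 CPM in each library: RTC2, a vacuolar transporter of cationic amino acids (2.47 ± 0.45), SPO1, a meiotic phospholipase-like protein (2.06 ± 0.39), NFT1, a putative multidrug transporter (1.90 ± 0.51), PDH1, a putative methylcitrate dehydratase of propionate metabolism (1.89 ± 0.42), and OCA4 (1.70 ± 0.41). NFT1 was not called after subtraction of reads at silent genes (0.85). SLI15 lost its call without [ESI+] replicate 2 (1.52) and YCX1 without set3 deletion replicate 1 (1.67). RTC2 (2.53), SPO1 (2.25), NFT1 (2.34) and PDH1 (2.22) were called without [ESI+] replicate 1 and in none of the other 3 fits (2.21 to 3.02, 1.82 to 2.35, 1.21 to 1.92 and 1.43 to 1.94), and OCA4 in none (1.65 to 1.73).

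Of the 5 marker genes, URA3 was called higher in [ESI+] and HIS3, described above, was called lower. URA3, which is deleted in BY4743 by textbook genotype, had 3.89 and 25.6 CPM in the [ESI+] libraries, 0.597 and 0.227 CPM in the set3 deletion and 0.244 and 0.312 CPM in naive (4.87 ± 0.88, adjusted p = 0.0108). The [ESI+] libraries were thus above every other library, with a wide gap between them. LEU2 had 2.58 and 3.12 CPM in [ESI+] against 1.06 and 1.25 CPM and was not called (1.33 ± 0.71, adjusted p = 0.204). LYS2 (0.21 ± 0.24) and MET17 (-0.36 ± 0.26) had overlapping groups. URA3 lost its call without [ESI+] replicate 2 (3.02), set3 deletion replicate 1 (5.94) and set3 deletion replicate 2 (4.6).

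Near chromosome ends, where [ESI+] was first described, more genes were higher than lower in [ESI+] relative to the set3 deletion. Of 193 genes tested within 20 kb of an end, 36 (18.7%) were higher and 1 lower, with a median of 0.75. Relative to naive, with the naive libraries shared, the same 193 genes had 17 higher and 16 lower in [ESI+]. The set3 deletion had 1 higher and 8 lower. In [ESI+] 8.43% within 10 kb and 9.09% at 10 to 20 kb were higher, under the 13.9% of all genes. The shares lower were 4.82% and 10.9%, under the 14.5% of all genes. In the set3 deletion 0% and 0.909% were higher, against 0.579% of all genes. There 6.02% and 2.73% were lower, against 1.92%. The medians of the 193 genes relative to naive were 0.23 in [ESI+] and -0.51 in the set3 deletion. YPS6, a putative aspartic protease, had 16.1 and 22.1 CPM in [ESI+], 6.43 and 6.39 CPM in the set3 deletion and 17.6 and 15.8 CPM in naive (1.58 ± 0.22, adjusted p = 0.00315). YPR202W had 5.83 and 9.16 CPM in [ESI+], 0.613 and 0.560 CPM in the set3 deletion and 0.875 and 0.175 CPM in naive (3.64 ± 0.64, adjusted p = 0.00637). YPS6 and YPR202W thus differed from the set3 deletion in the same direction with naive on opposite sides.

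IMD2, described above, is a further gene of these regions. COX14, an assembly factor of cytochrome oxidase, was the 1 gene lower there, with 8.58 and 6.76 CPM against 17.8 and 21.1 CPM (-1.34 ± 0.25, adjusted p = 0.0075). Of 12 COS genes, a family near chromosome ends looked at after its values were seen, 8 were higher and 0 lower, with fold changes from 0.57 to 3.12, and 9 of the 12 share reads. YPS6 was called in each of the 4 fits without 1 library (1.33 to 1.77). YPR202W lost its call without [ESI+] replicate 2 (3.28) and without set3 deletion replicate 1 (3.67), as did COX14 (-1.18 and -1.50).

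The share of genes higher was 25.3% of 83 genes within 10 kb, 13.6% of 110 genes at 10 to 20 kb, 12.0% of 133 at 20 to 30 kb, 12.7% of 134 at 30 to 40 kb, 6.38% of 627 at 40 to 80 kb and 7.43% of 4641 farther in. The share lower was 0% within 10 kb, 0.909% at 10 to 20 kb and largest, at 14.2%, at 40 to 80 kb. Genes near ends are few reads deep and much duplicated: within 10 kb the median level was 2.77 CPM and 60 of 83 genes share reads. After subtraction of reads at silent genes the share higher was 14.9% within 10 kb, 5.66% at 10 to 20 kb, 8.40% at 20 to 30 kb, 5.22% at 30 to 40 kb, 3.72% at 40 to 80 kb and 5.0% farther in, with no steady fall beyond 10 kb. In that setting 17 genes within 20 kb were called higher and 4 lower. Without each library in turn 27, 2, 1 and 4 genes within 20 kb were higher and 2, 0, 0 and 1 lower.

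**Figure D5:**
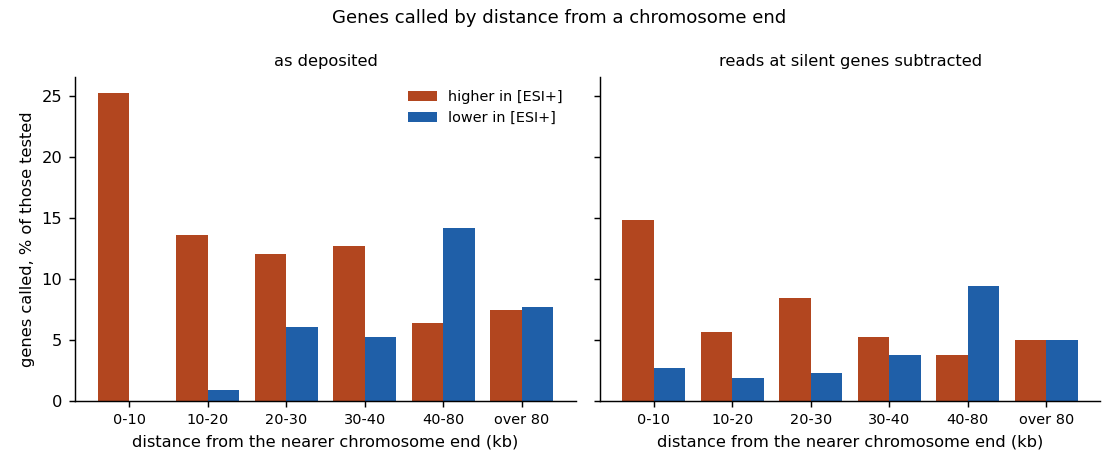
Share of genes called higher (red) or lower (blue) in [ESI+] relative to the set3 deletion, in percent of those tested, by distance from the nearer chromosome end in kb, as deposited (left) and after subtraction of reads at silent genes (right). Within 10 kb 25.3% were higher as deposited and 14.9% after subtraction.

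Targets of the mitochondrial genome had the largest median difference among the gene lists. Of 24 targets tested, 23 were higher in [ESI+] and 0 lower, with a median of 5.33. VAR1, the mitochondrial gene of a ribosomal protein, had 6.68 and 14.6 CPM in [ESI+], 0.208 and 0.567 CPM in the set3 deletion and 0.663 and 0.156 CPM in naive (5.18 ± 0.72, adjusted p = 0.00315). The intron reading frames AI5_BETA and AI2 had 4.70 ± 0.61 and 4.40 ± 0.56. Q0255, a further mitochondrial reading frame, had 1769 counts in the 2 [ESI+] libraries together and 1 in the set3 deletion, a ratio of 923 (95% interval 166 to 36494.6), and Q0010, which shares reads, was at least 107-fold higher with the empty group set to 3 counts in all. These libraries were primed on poly(A) tails, which yeast mitochondrial transcripts lack, and reads at silent nuclear genes were also more in the [ESI+] libraries. What either contributes to the mitochondrial difference was not tested. After subtraction at the rate of silent nuclear genes 18 of the 20 targets still tested were higher, with a median of 5.29. That rate was 0.421 and 2.44 CPM per kb in [ESI+], below the 4.26 and 21.6 of mitochondrial targets. The subtraction therefore could not remove reads particular to the mitochondrial genome. The list count was 26, 5, 0 and 11 without each library in turn, over the targets that each fit tested. VAR1 (4.17), AI5_BETA (4.08), AI2 (4.02), Q0255 (11.57) and Q0010 (10.06) lost their calls without set3 deletion replicate 1, and Q0010 also without [ESI+] replicate 2 (8.70).

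Transposon reading frames had 18 of 69 tested (26.1%) higher in [ESI+] and 0 lower, with a median of 0.78. Ty elements are present in many near-identical copies, and 68 of the 69 share reads, so that a value at 1 copy cannot be read as that copy's own level. YFL002W-A and YGR161W-B, a pair with identical values, had 29.9 and 35.7 CPM in [ESI+], 7.80 and 12.8 CPM in the set3 deletion and 16.5 and 13.3 CPM in naive (1.71 ± 0.24, adjusted p = 0.00315). YNL284C-B had 36.7 and 41.1 CPM against 17.4 and 18.9 CPM (1.10 ± 0.20, adjusted p = 0.0068), and YPL257W-B, near 0 in every library outside [ESI+], was at least 232-fold higher. The Ty count was 12, 4, 4 and 10 without each library in turn, 13 after subtraction of reads at silent genes and 0 without genes of shared reads. YNL284C-B lost its call without [ESI+] replicate 2 (1.02) and without set3 deletion replicate 1 (0.99).

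The largest differences downward were at targets that share reads. YCR087C-A had 1422 counts in the set3 deletion libraries together and under 1 in [ESI+], at least 908-fold lower, YJL026C-A had 457 and 0 counts, at least 292-fold lower, and CPP2 had 425 and 0, at least 271-fold lower. YHR165W-A had 0.660 and 0.787 CPM in [ESI+] against 7.09 and 5.37 CPM (-3.12 ± 0.38, adjusted p = 0.0025). These 4 targets were called in each fit without 1 library. In the other direction YHR054C, at 4.81 and 16.7 CPM in [ESI+], was at least 312-fold higher, and SNO3, at 0.497 and 1.38 CPM in [ESI+] and 0 in the set3 deletion, was at least 27.0-fold higher. YHR054C lost its call without set3 deletion replicate 1 (11.61) and SNO3 kept its call only without [ESI+] replicate 1. CUP1-1, the copper metallothionein in tandem copies beside YHR054C, had 1.60 and 0.814 CPM in [ESI+], 9.75 and 13.1 CPM in the set3 deletion and 39.2 and 13.9 CPM in naive, and was not called by edgeR (-3.23 ± 0.88, adjusted p = 0.0538). Of the 3 metallothionein targets, the main edgeR fit called 0 with 3 at an unadjusted p under 0.05. DESeq2, and edgeR with DESeq2's size factors, each called 3 lower. In edgeR, subtraction of reads at silent genes and removal of the length trend each gave 2 lower.

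The remaining lists had few members called. Of 39 Gcn4-regulated amino acid genes 2.56% were lower, and of 61 small nucleolar and nuclear RNAs 1.64%, against 7.93% over all genes. Of the Gcn4-regulated amino acid genes, ARG1 was lower (-1.06 ± 0.33, 0.16 with spike-in library sizes), and lost its call in all 4 fits without 1 library (-1.23 to -0.93). Of 61 small nucleolar and nuclear RNAs, SNR8 was lower (-1.70 ± 0.44, adjusted p = 0.0294) and 0 were higher, and it kept its call only without set3 deletion replicate 2 (-2.10, against -2.12, -1.37 and -1.03). None of 6 flocculins was called by the main edgeR fit or by DESeq2 (unadjusted p under 0.05 in 1). FLO1, at 0.87 ± 0.37 (adjusted p = 0.125), had the smallest p. After subtraction of reads at silent genes 1 flocculin was lower, and with the length trend removed 2 were. With the replicate number as a term in the fit 1 was higher. Of 8 DAN and TIR genes 1, TIR1, was higher (12.5%), and of 19 thiamine genes 1, SNO3 (5.26%), against 8.22% over all genes. The thiamine list had a median of 0.82, with an unadjusted p under 0.05 from edgeR in 11 genes.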

How the data were processed

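RNA-seq libraries of diploid yeast were made with ERCC spike-in RNAs, priming on poly(A) tails on beads, sonication and a DNA library kit, and read as paired ends, per the labels' protocols. The strand setting is not stated, so reads of overlapping and antisense genes cannot be told apart. Per the submitters' processing notes the values come from kallisto 0.44 and build R64. The authors deposited estimated counts and TPM for 7218 targets per library, 92 of them ERCC, and a target length, per the file headers.

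Expected (estimated) counts, as deposited, were rounded, ERCC targets were set aside and edgeR 4.0.16 (R 4.3.3) was run with TMM library sizes, filterByExpr and glmQLFit (robust), fitted to all 10 libraries with a term for each group. The contrast was [ESI+] minus set3 deletion, two-sided, with Benjamini-Hochberg adjustment. The SE is the log2 fold change over the square root of F. CPM of single genes use TMM library sizes. The CPM per kb of silent genes and of mitochondrial targets use the summed counts of non-ERCC targets, without TMM. A target shares reads where an estimated count is not whole within 0.001, which held for 1403 of the 6390 tested. Silent genes are 300 bases or longer and average below 0.2 CPM per kb in the 6 libraries outside the contrast. Their median per kb times length was subtracted, and each library's trend with length was taken out by loess (span 0.5), as alternatives. The deposited TPM were used in limma 3.58.1 on log2(TPM + 1), and DESeq2 1.42.0 was run on the counts. Fits without 1 library leave 1 library in a group, which is assumed to vary like the others. In simulated data for this comparison, with 200 of 6390 genes changed, 40.3% of 2-fold, 91.0% of 4-fold and 90.9% of 8-fold changes were called. There were 9 false calls among the genes left unchanged. The simulated libraries did not differ in length trend or in reads at silent genes. That count therefore does not measure false calls in the real libraries.

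The groups, the 37 gene lists and the naming rule were chosen with earlier results of these data known. The rule named the Set3 complex, 5 marker genes, the 15 highest and 15 lowest called nuclear genes of whole counts with at least 5 CPM in 1 of the 4 libraries, the 4 highest and 4 lowest of the other targets, and up to 4 members of each list by smallest p. Names were dropped only from the end of a ranking. One result that the rule gave is not reported here. The list of outermost genes holds genes within 20 kb of a chromosome end. Of 6593 reading frame targets 5914 matched the R64 annotation, and 2 list genes matched no target.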

Additional observations from a re-analysis of the deposited data

How the results depend on the processing

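The 1032 calls (525 higher, 507 lower) became 687 (340, 347) after subtraction of reads at silent genes, 1072 (298, 774) after removal of the length trend, 560 (246, 314) with both, a pairing of choices added after seeing the data, 48 (38, 10) with spike-in library sizes, 1604 (1532, 72) with limma-trend on log2(TPM + 1), 2352 (1139, 1213) in the 4 libraries alone, 1472 (613, 859) with DESeq2 and 1016 (463, 553) with its size factors. The cause of these shifts was not tested, apart from the median over all genes, which moved to 1.28 with spike-in and 0.61 with TPM values. Without 1 library the calls ranged from 50 to 399 (15 to 257 higher, 20 to 193 lower). Lists with a called member numbered 34, 7 with spike-in library sizes and 7 to 26 without 1 library. Of the 118 called genes that the naming rule gave, 14 were still called with spike-in library sizes, 73 with a minimum mean of 10 CPM, and 24 to 79 without 1 library. With spike-in library sizes 22 genes changed sign, at RRS1 0.49, REI1 0.13, MAK16 0.19, RPA14 0.15, RPA12 0.60, ATP14 0.23, FTR1 0.046, CIS3 0.26, TIP1 0.32, HSP60 0.27, HSF1 0.42, ASF1 0.12, CAC2 0.22, PHO85 0.49, ARG1 0.16, CLN1 0.45, CLN2 0.59, MRPL20 0.22, MRPL37 0.17, RSM19 0.24, YML6 0.28 and RPL23A 0.052. With the replicate number as a block 1660 genes were called (829 higher, 831 lower), but the numbers do not pair these libraries, whose replicate differences had r = 0.030 across genes. Depth limits set3 deletion replicate 2 most, at 8327730 counts.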
